A study of Mus musculus with 4 samples.

Results

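Retinoic acid with insulin, transferrin and selenium (ITS) was the second step of a culture protocol that takes primary mouse hepatocytes toward insulin-producing cells. The change in RNA over that step was read by setting stage S2, taken at its end, against stage S1, taken just before it. All genes with at least 1 CPM (reads scaled to the size of the library) in S2 or S1 were members of the comparison, which gave 14626 of the 30138 entries in the table. The library of S2 came from hepatocytes that had gone through the S1 treatment and were then kept for 7 days with 1X ITS and retinoic acid (RA) at a labelled 2 mM. Cells of S1 had received the DNA methylation inhibitor 5-azacytidine at a labelled 5 mM for 48 h and then, for 24 h, trichostatin A at 100 nM, which inhibits histone deacetylases. Cells of both stages were in the same serum-free medium, with 2% knockout serum, B-27 and N-2 supplements, and the growth factors bFGF (basic fibroblast) and EGF (epidermal) at 20 ng/ml each. S0, the untreated culture in that medium, and S3, 7 further days with nicotinamide at 10 mM and without the growth factors, were the other two stages. The labels give neither strain nor age, and each stage is 1 library, so no difference below has a replicate check. An untreated culture kept for the same 7 days was not analysed here, so time in culture, recovery from both inhibitors, ITS and RA cannot be told apart.

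Cells make RA from retinol in a pair of oxidation steps, the first by retinol dehydrogenases and the second by retinaldehyde dehydrogenases. RA binds RA receptors (Rar genes), which pair with retinoid X receptors (Rxr genes) on DNA and activate nearby genes, among them the anterior Hox genes and the Cyp26 genes, whose enzymes break RA down. Insulin in the liver induces fat synthesis and represses glucose output, transferrin carries iron into cells, and selenium is built into selenoproteins such as the glutathione peroxidases.

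Known DNA elements for the RA receptor stand in the promoters of Cyp26a1 and Rarb. In the RefSeq promoter windows of mouse build GRCm38.p6, each 300 bases long and ending 50 bases past a gene's start, a direct repeat of GTTCA with 6 bases of any kind between its units was searched on both strands. It was found in 25 of 32851 windows (0.0761%), and these were the only 2 windows with it among 11 higher RA target genes with a window. Both are printed 5′ to 3′ on the strand of the gene with the repeat in capitals, since both genes were higher in S2. The Cyp26a1 window is chr19:37697558-37697857 on the plus strand, and its repeat lies on the opposite strand:
Cyp26a1: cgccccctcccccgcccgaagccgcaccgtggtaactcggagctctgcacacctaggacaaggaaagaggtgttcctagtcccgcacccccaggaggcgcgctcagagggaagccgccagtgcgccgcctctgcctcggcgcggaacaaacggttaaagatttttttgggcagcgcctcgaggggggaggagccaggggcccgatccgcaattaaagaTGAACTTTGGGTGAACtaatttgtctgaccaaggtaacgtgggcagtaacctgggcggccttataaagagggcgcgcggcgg
The Rarb window is chr14:16575427-16575726 on the minus strand, and its repeat lies on the strand of the gene:
Rarb: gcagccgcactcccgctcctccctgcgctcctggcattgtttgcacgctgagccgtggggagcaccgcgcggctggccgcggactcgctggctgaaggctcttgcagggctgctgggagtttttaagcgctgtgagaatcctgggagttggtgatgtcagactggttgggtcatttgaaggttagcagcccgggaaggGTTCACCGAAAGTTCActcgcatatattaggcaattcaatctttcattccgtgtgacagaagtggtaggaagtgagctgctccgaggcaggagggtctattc
The repeat was also in the windows of 5 other genes tested. Of these Serpinf2 was higher, Cfap45 was lower, and Blvrb, Dmd and Tnfsf13b were neither. These 3 uncalled genes were at 128 CPM in S2 and 139 CPM in S1 for Blvrb, 15.9 CPM in S2 and 20.5 CPM in S1 for Dmd and 1.41 CPM in S2 and 0.964 CPM in S1 for Tnfsf13b.

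Reads in genes numbered 22944047 in S2 and 26655887 in S1. A gene is called higher or lower here when the whole 95% interval of its ratio (Clopper-Pearson, in parentheses after each fold) lay beyond 2-fold. These intervals cover counting error only, and without molecular identifiers copies made by amplification count as separate reads. Where one library had 0 reads of a gene, 3 reads stood in as a floor, and the fold is written as at least that size. In S2, 1014 of the 14626 genes were higher than in S1 (6.93%) and 1518 were lower (10.4%), while 54.3% lay within 1.5-fold. The losses were steeper than the gains, with 374 genes at least 10-fold lower and 57 at least 10-fold higher. Among the 3083 genes that peaked at 1 to 5 CPM, 4.83% were higher and 20.6% lower, and among the 2706 genes above 100 CPM, 9.94% were higher and 1.96% lower. The lower genes were thus mostly transcripts of low level in S1. Genes at 1 CPM in only one stage can only be called one way, and 693 of the lower and 157 of the higher genes were of that kind. Just inside the limit lay Cdkl1, at 1.00 CPM in S2 and 0.654 CPM in S1, and just outside it Cldn10, at 0.137 CPM in S2 and 0.999 CPM in S1. With library totals alone in place of TMM scaling (edgeR's correction for composition) the split was 709 higher and 1889 lower, and the median of all genes moved by -0.20 on the log2 scale. Of the genes named as higher below, Abcb4, Ccnd1, Lrp8 and Sephs1 kept their call under 1 of 5 other scalings, and Cdkn2b and Hpx under 2. Col4a5, Crabp2, Fgg, Hoxaas3, Inppl1, Mttp, Rarg, Rdh14, Scd1 and Xbp1 lost theirs without TMM.

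**Figure D1:**
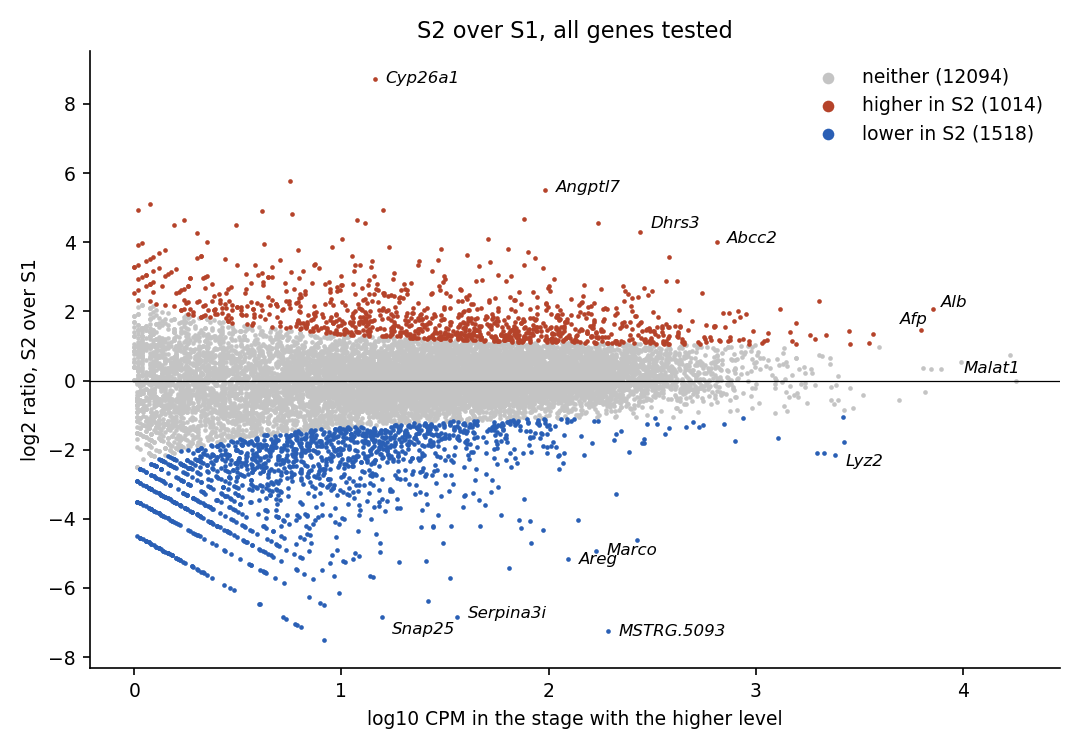
Log2 ratio of S2 over S1 for the 14626 genes tested (vertical axis) against log10 CPM in the stage with the higher level (horizontal axis). Red points are the 1014 higher and blue points the 1518 lower genes. The share of lower genes is largest at 1 to 5 CPM (20.6%), and Cyp26a1 stands highest at 423-fold.

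Of 7 hepatocyte markers, 3 were higher, 1 lower and 3 uncalled. Alb, the main plasma protein of the liver, stood at 7171 CPM in S2 against 1724 CPM in S1, 4.16-fold higher (4.12 to 4.2). Hnf4a, the nuclear receptor that maintains hepatocyte identity, was at 234 CPM in S2 against 38.9 CPM in S1, 6.02-fold higher (5.64 to 6.43). The lower one was Serpina1a, the gene of a protease inhibitor of plasma, at 227 CPM in S2 against 556 CPM in S1, 2.45-fold lower (2.37 to 2.53). The alcohol-oxidising enzyme gene Cyp2e1, abundant in fresh hepatocytes, had 1 read in each library, and the urea cycle gene Cps1 had 4.46 CPM in S2 and 2.89 CPM in S1. Markers of other cells were present, with sums on either side of their S1 level. The summed level of 6 macrophage markers was 662 CPM in S2 and 2989 CPM in S1, that of 4 smooth muscle markers 408 CPM in S2 and 1061 CPM in S1, and that of 4 neural markers 8.20 CPM in S2 and 132 CPM in S1. The sum of 5 stellate cell or fibroblast markers was 1032 CPM in S2 and 485 CPM in S1, and that of 3 mesothelial markers 1421 CPM in S2 and 1224 CPM in S1. None of these markers was at 0 reads in either library. In this bulk RNA, fewer cells of a type and less RNA per cell cannot be told apart.

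**Figure D2:**
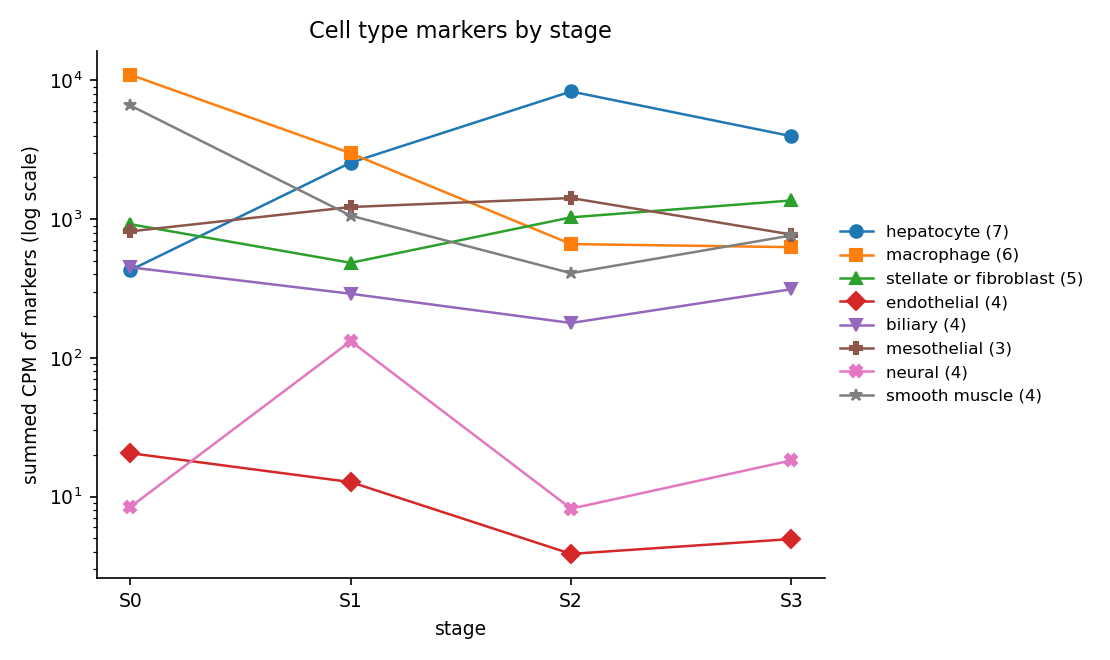
Summed CPM of cell type markers on a log scale at stages S0 to S3, with the number of markers per type in the legend. The hepatocyte sum stands at 8334 CPM in S2 and 2557 CPM in S1, whereas the macrophage, smooth muscle and neural sums are lower in S2.

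The RA breakdown genes Cyp26a1 and Cyp26b1 were higher in S2, as was Dhrs3, which is on the list of RA transport and synthesis. Of 5 binding and breakdown genes tested, 3 were higher and 1 lower. Cyp26a1, the RA hydroxylase, had 320 reads in S2 and 1 read in S1, that is 14.6 CPM in S2 against 0.0344 CPM in S1, 423-fold higher (75.4 to 16763). Among the higher genes of at least 10 CPM it had the interval farthest from no change. Across the protocol its level was 0, 0.0344, 14.6 and 2.05 CPM from S0 to S3. Cyp26b1, its close relative, stood at 29.2 CPM in S2 against 2.58 CPM in S1, 11.3-fold higher (8.89 to 14.6). Dhrs3, which reduces retinaldehyde back to retinol, was at 276 CPM in S2 against 14.1 CPM in S1, 19.5-fold higher (17.7 to 21.6). Both were highest in S2 of the 4 stages, with Cyp26b1 at 0.674, 2.58, 29.2 and 15.4 CPM from S0 to S3 and Dhrs3 at 85.1, 14.1, 276 and 151 CPM from S0 to S3. The binding proteins went opposite ways. Crabp2, which hands RA to its receptors, was at 5.65 CPM in S2 against 1.93 CPM in S1, 2.93-fold higher (2.12 to 4.09), whereas Crabp1, which holds RA in the cytoplasm, had no reads in S2 and 129 in S1, 0 CPM in S2 against 4.44 CPM in S1, at least 32.5-fold lower. Fabp5, another lipid carrier that binds RA, was not called, at 55.8 CPM in S2 and 102 CPM in S1.

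Genes of RA transport and synthesis were split. Of 30 listed, 21 were tested, 4 were higher and 5 lower, with a median log2 ratio of 0.32 against 0.02 over all genes. The list also holds genes that turn retinaldehyde back to retinol, Dhrs3 among the higher ones and Rdh12 among the lower. The lower members included retinaldehyde dehydrogenases, which carry out the last step of RA synthesis. Aldh1a2 was at 1.73 CPM in S2 against 18.5 CPM in S1, 10.7-fold lower (7.69 to 15.3). Aldh1a3 was at 1.0 CPM in S2 against 12.2 CPM in S1, 12.1-fold lower (7.89 to 19.6). Aldh1a1, the family member with the most reads here, was not called, at 317 CPM in S2 and 284 CPM in S1. The retinol dehydrogenase gene Dhrs9 was at 7.19 CPM in S2 against 53.2 CPM in S1, 7.39-fold lower (6.27 to 8.76). The retinaldehyde reductase gene Rdh12 was at 0.319 CPM in S2 against 3.17 CPM in S1, 9.94-fold lower (4.64 to 25.4). Bco1, which cleaves beta-carotene to retinaldehyde, was at 28.4 CPM in S2 against 108 CPM in S1, 3.81-fold lower (3.49 to 4.16). On the higher side, Adh1, the liver alcohol dehydrogenase that also oxidises retinol, was at 11.3 CPM in S2 against 0.93 CPM in S1, 12.1-fold higher (8.15 to 18.8). Dhrs4 was at 23.5 CPM in S2 against 4.96 CPM in S1, 4.75-fold higher (3.94 to 5.75). Rdh14 was at 36.7 CPM in S2 against 15.4 CPM in S1, 2.39-fold higher (2.12 to 2.69). Rdh10, the main retinol dehydrogenase of the embryo, stood at 124 CPM in S2 and 131 CPM in S1. Aldh1a2 and Aldh1a3 had their highest level in S1 of the 4 stages, Aldh1a2 being at 3.11, 18.5, 1.73 and 4.27 CPM from S0 to S3 and Aldh1a3 at 0.487, 12.2, 1.0 and 0.939 CPM from S0 to S3.

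**Figure D3:**
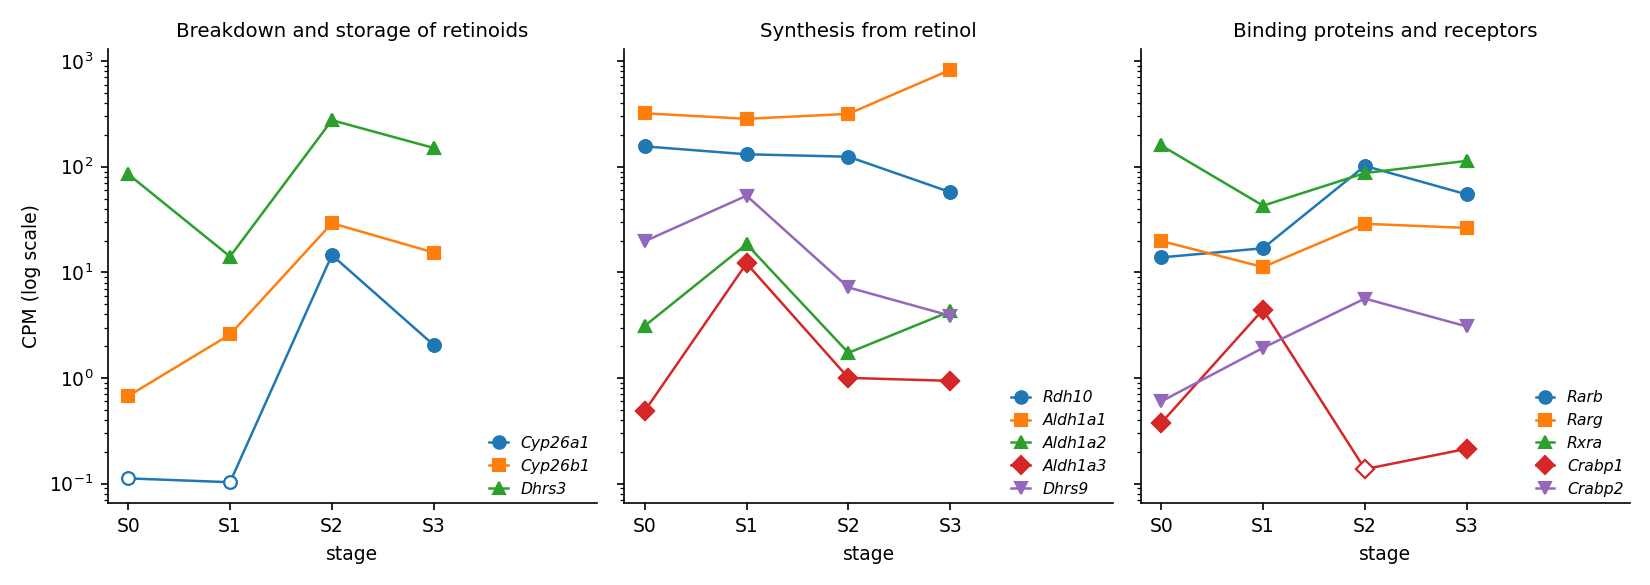
Level of retinoid genes in CPM (log scale) at stages S0 to S3, with open symbols at the 3-read floor for levels below it. Cyp26a1, Cyp26b1, Dhrs3 and Rarb peak in S2, while Aldh1a2, Aldh1a3 and Crabp1 peak in S1.

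Of 11 receptor and cofactor genes tested, 2 were higher and 0 lower. Rarb, the receptor gene with the repeat printed above, was at 102 CPM in S2 against 16.9 CPM in S1, 6.02-fold higher (5.46 to 6.65). Rarg was at 28.8 CPM in S2 against 11.2 CPM in S1, 2.57-fold higher (2.24 to 2.94). Others were not called. Rxra was at 87.1 CPM in S2 and 42.8 CPM in S1. The corepressor gene Ncor1 was at 253 CPM in S2 and 162 CPM in S1, and the coactivator gene Ncoa3 was at 57.4 CPM in S2 and 63.2 CPM in S1. Rara, chosen after its values were seen, was at 17.3 CPM in S2 and 19.3 CPM in S1.

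RA target genes known from other systems were mostly higher or uncalled. Of 46 listed, 38 were tested, 17 were higher and 2 lower (median log2 ratio 1.27), and among the 31 members at 1 CPM in both stages 12 were higher and 1 lower. Besides the genes above and the Hox genes, the higher ones were transcription factors. Zbtb16, a zinc finger repressor, was at 4.42 CPM in S2 against 0.551 CPM in S1, 8.02-fold higher (4.69 to 14.6). Hic1, another, was at 19.2 CPM in S2 against 3.58 CPM in S1, 5.36-fold higher (4.32 to 6.71). The endoderm factors followed. Foxa2 was at 43.9 CPM in S2 against 16.4 CPM in S1, 2.67-fold higher (2.39 to 2.99). Gata4 was at 78.1 CPM in S2 against 30.2 CPM in S1, 2.58-fold higher (2.38 to 2.8). Gata6 was at 104 CPM in S2 against 40.4 CPM in S1, 2.58-fold higher (2.4 to 2.77). Not all listed targets moved with them. Gbx2, a homeobox gene of the hindbrain border, was at 0.0911 CPM in S2 against 1.07 CPM in S1, 11.7-fold lower (2.98 to 101). Icam1, a leukocyte adhesion molecule, was at 28.2 CPM in S2 against 78 CPM in S1, 2.76-fold lower (2.53 to 3.02). Others were uncalled. Tgm2, the tissue transglutaminase, was at 129 CPM in S2 and 92.1 CPM in S1. Egr1, an immediate early factor, was at 46.6 CPM in S2 and 63.9 CPM in S1.

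Hox genes sit in 4 clusters in which the 3′ genes carry the low numbers, and in embryos these respond to RA first. Of 11 genes of paralog groups 2 to 6 tested, 10 were higher and 0 lower, with a median of 4.34-fold. However, 7 of these 11 reached 1 CPM in S2 only and could not have been called lower, and of the other 4 genes 3 were higher. Of 9 genes of groups 7 to 13 tested, 0 were higher and 2 lower, with a median of 1.14-fold. Some uncalled ones of these had ratios above 2-fold with intervals that reached below it. Hoxb7 had a ratio of 3.19-fold (1.77 to 5.99) and Hoxd9 of 3.49-fold (1.69 to 7.73), both chosen after their values were seen. Uncalled ratios below 1 were those of Hoxa7 at 0.912 and Hoxc13 at 0.81, Hoxc13 also being chosen after its values were seen. Hoxa5 had the most reads of the family, at 44.6 CPM in S2 against 6.06 CPM in S1, 7.36-fold higher (6.26 to 8.69). Hoxb2 was at 2.73 CPM in S2 against 0.241 CPM in S1, 11.3-fold higher (5.18 to 29.4). Hoxb3 was at 3.82 CPM in S2 against 0.379 CPM in S1, 10.1-fold higher (5.36 to 21). Hoxa4 was at 5.74 CPM in S2 against 0.654 CPM in S1, 8.77-fold higher (5.39 to 15). Each of these 4 genes peaked in S2, for example Hoxa5 with 2.77, 6.06, 44.6 and 17.3 CPM from S0 to S3. The exception in groups 2 to 6 was Hoxc4, uncalled at 3.1 CPM in S2 and 2.0 CPM in S1. At the 5′ end, Hoxb13 was at 0.0455 CPM in S2 against 2.24 CPM in S1, 49.2-fold lower (8.52 to 1971). Hoxa13 was at 0.228 CPM in S2 against 1.72 CPM in S1, 7.56-fold lower (3.03 to 24.3). Hoxb9 and Hoxd8, from the middle of their clusters, were at 9.29 CPM in S2 and 4.75 CPM in S1 for Hoxb9 and 5.92 CPM in S2 and 5.2 CPM in S1 for Hoxd8. Of the 20 Hox genes of groups 2 to 13 tested, 9 reached 1 CPM in S2 only and 3 in S1 only. The non-coding genes Hoxaas2 and Hoxaas3 of the Hoxa cluster were also higher. Hoxaas2 was at 4.19 CPM in S2 against 0.585 CPM in S1, 7.16-fold higher (4.23 to 12.8). Hoxaas3 was at 2.5 CPM in S2 against 0.654 CPM in S1, 3.83-fold higher (2.24 to 6.83). Whether counting used the strand is not given in the sources used here, so reads of these genes and of overlapping Hox genes on the other strand cannot be told apart, and the same holds for the other antisense genes named here.

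**Figure D4:**
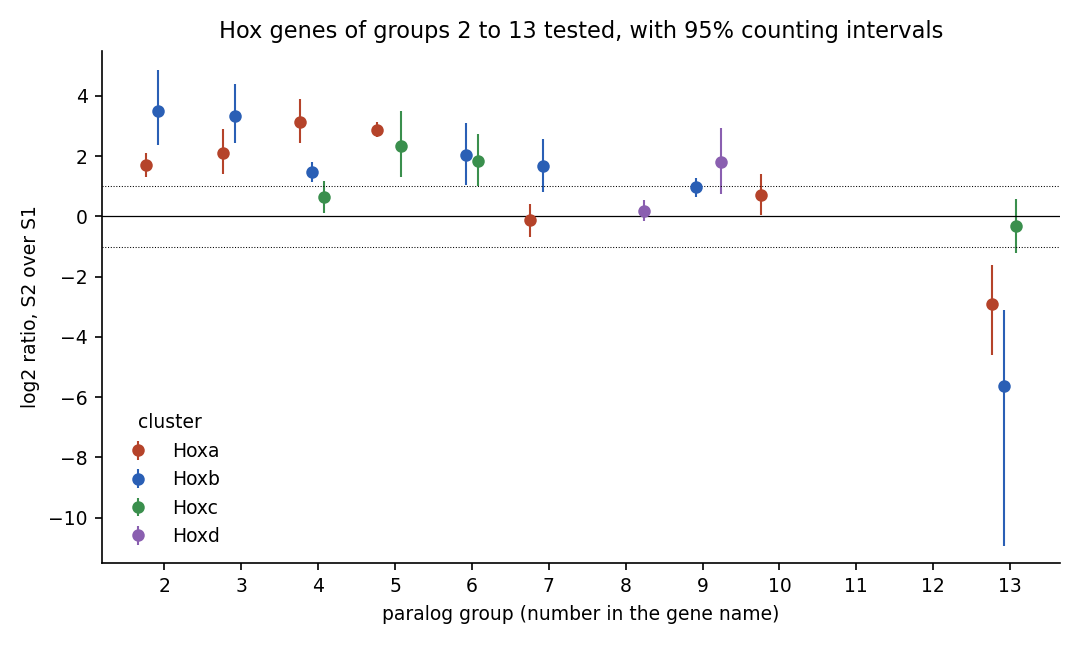
Log2 ratio of S2 over S1 for the 20 Hox genes of groups 2 to 13 tested, by paralog group and coloured by cluster, with 95% counting intervals and dotted lines at 2-fold. 10 of the 11 genes in groups 2 to 6 lie above the upper line, and Hoxa13 and Hoxb13 lie below the lower one. Hoxb7 and Hoxd9 also lie above the upper line, with intervals that cross it.

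Genes of the insulin receptor pathway and liver genes that insulin is known to drive were followed over the step with ITS. The contents of B-27 and N-2, in the medium of both stages, were not examined here. S1 is therefore not taken as free of insulin, transferrin or selenium. Of 35 receptor and PI3K pathway genes, all tested, 1 was higher and 3 lower, shares at or under those of all genes. Inppl1, a phosphatase of the PI3K product, was at 174 CPM in S2 against 73.4 CPM in S1, 2.37-fold higher (2.24 to 2.5). Shc1, an adaptor of the receptor, was at 155 CPM in S2 against 328 CPM in S1, 2.12-fold lower (2.04 to 2.2). Insrr and Irs4, both low, were at 0 CPM in S2 against 1.65 CPM in S1, at least 12.1-fold lower for Insrr and 0.273 CPM in S2 against 2.79 CPM in S1, 10.2-fold lower (4.49 to 28.6) for Irs4. Several main pathway genes were uncalled. Insr was at 131 CPM in S2 and 78.3 CPM in S1. Pik3ca, the catalytic subunit of PI3K, was at 165 CPM in S2 and 113 CPM in S1. Akt1 was at 242 CPM in S2 and 149 CPM in S1.

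Genes that insulin induces in liver included several higher members. Of 18 listed, 16 were tested, 5 were higher and 1 lower (median log2 ratio 0.79). The higher ones included genes of fat synthesis and sterol control. Fasn, the fatty acid synthase, was at 428 CPM in S2 against 104 CPM in S1, 4.12-fold higher (3.95 to 4.29). The desaturase genes Fads2 and Scd1 were at 192 CPM in S2 against 46.2 CPM in S1, 4.17-fold higher (3.92 to 4.43) for Fads2 and 159.6 CPM in S2 against 67.1 CPM in S1, 2.38-fold higher (2.25 to 2.51) for Scd1. Insig1, which restrains sterol synthesis, was at 159.7 CPM in S2 against 41.9 CPM in S1, 3.81-fold higher (3.57 to 4.07). Their regulator gene Srebf1 was not called, at 92.2 CPM in S2 and 50.3 CPM in S1, nor was Acaca, at 213 CPM in S2 and 147 CPM in S1. Pnpla3, a lipid droplet enzyme, was at 0.319 CPM in S2 against 4.96 CPM in S1, 15.6-fold lower (7.36 to 39.4). Of 16 listed genes that insulin represses, 11 were tested, 2 were higher and 1 lower. Igfbp1, a binding protein for insulin-like growth factors, was at 7.33 CPM in S2 against 1.65 CPM in S1, 4.43-fold higher (3.19 to 6.26). Mttp, which loads lipid onto lipoproteins, was at 40.2 CPM in S2 against 17.2 CPM in S1, 2.33-fold higher (2.09 to 2.61). Higher Igfbp1 and Mttp run against their listed response to insulin.

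Of 29 listed genes of iron handling, 25 were tested, 3 were higher and 2 lower (median log2 ratio 0.33). The shares over all genes were 6.93% higher and 10.4% lower. Without TMM, and also in the RPKM values, 2 members of the iron list were higher and 3 lower. Cp, the copper oxidase that loads iron onto transferrin, was at 251 CPM in S2 against 56.4 CPM in S1, 4.45-fold higher (4.21 to 4.71). The ferric reductase gene Steap2 was at 562 CPM in S2 against 233 CPM in S1, 2.41-fold higher (2.34 to 2.48). The haem carrier gene Hpx was at 72.9 CPM in S2 against 32.6 CPM in S1, 2.23-fold higher (2.06 to 2.42). The lower members are also inflammation genes. Lcn2, which binds bacterial iron carriers, was at 0.683 CPM in S2 against 14.7 CPM in S1, 21.5-fold lower (12.9 to 38.8). Steap4 was at 1.27 CPM in S2 against 24.1 CPM in S1, 18.9-fold lower (13 to 28.7). Transferrin itself and the ferritin chains were uncalled. Trf was at 450.3 CPM in S2 and 287 CPM in S1. Ftl1 was at 7028 CPM in S2 and 5575 CPM in S1. Fth1 was at 647 CPM in S2 and 1233 CPM in S1. Tfrc, the transferrin receptor, chosen after its values were seen, was at 89.4 CPM in S2 and 80.8 CPM in S1.

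Of 27 selenium genes tested, 2 were higher (7.4%, against 6.93% of all genes) and 0 lower (0.0%, against 10.4%). Their median log2 ratio was 0.40. Neither call held without TMM, with RLE size factors, with TMM on protein-coding genes or in the RPKM values, where 2 other members were lower. Sephs1, a homologue of the selenophosphate synthetase, was at 44.3 CPM in S2 against 19.7 CPM in S1, 2.25-fold higher (2.02 to 2.5). Lrp8, a receptor for selenoprotein P, was at 57.4 CPM in S2 against 26.1 CPM in S1, 2.2-fold higher (2.01 to 2.41). Selenoproteins of high level were uncalled with higher values in S2. Gpx1 was at 403 CPM in S2 and 247 CPM in S1. Gpx4 was at 994 CPM in S2 and 752 CPM in S1. Txnrd1 was at 2084 CPM in S2 and 1287 CPM in S1. Sepp1, selenoprotein P, was at 1082 CPM in S2 and 686 CPM in S1.

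Many genes of secreted liver proteins were higher in S2. Of 14 albumin family and carrier genes tested, 8 were higher and 0 lower (57.1%, against 6.93% of all genes). Ttr, the carrier of thyroid hormone and retinol-binding protein, was at 382 CPM in S2 against 31.8 CPM in S1, 12-fold higher (11.2 to 12.9). Gc, the vitamin D carrier, was at 895 CPM in S2 against 235 CPM in S1, 3.8-fold higher (3.7 to 3.91). The fetal albumin gene Afp was at 6283 CPM in S2 against 2270.2 CPM in S1, 2.77-fold higher (2.74 to 2.79). Over the protocol Alb was at 234, 1724, 7171 and 3569 CPM from S0 to S3. The retinol carrier gene Rbp4 was uncalled, at 38.2 CPM in S2 and 40.2 CPM in S1. Of 27 coagulation genes tested, 15 were higher and 3 lower (median log2 ratio 1.59). Fibrinogen chains were among the higher ones. Fga was at 166 CPM in S2 against 35.3 CPM in S1, 4.69-fold higher (4.38 to 5.04). Fgb was at 253 CPM in S2 against 48.1 CPM in S1, 5.25-fold higher (4.95 to 5.57). Fgg was at 6.01 CPM in S2 against 2.0 CPM in S1, 3.01-fold higher (2.19 to 4.17). Cpb2, which slows clot breakdown, was at 62.1 CPM in S2 against 8.44 CPM in S1, 7.36-fold higher (6.42 to 8.47). F12 was at 32.1 CPM in S2 against 5.54 CPM in S1, 5.8-fold higher (4.88 to 6.92). The lower ones were F5 and the plasminogen activators. F5, a cofactor of thrombin formation, was at 5.28 CPM in S2 against 18.1 CPM in S1, 3.42-fold lower (2.79 to 4.22). Plat, the tissue type activator, was at 235 CPM in S2 against 796 CPM in S1, 3.38-fold lower (3.28 to 3.49). Plau, the urokinase type, was at 5.97 CPM in S2 against 17.3 CPM in S1, 2.89-fold lower (2.38 to 3.53).

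Apolipoprotein, complement and serpin genes were divided. Of 22 lipoprotein genes tested, 7 were higher and 1 lower. Apob, the core protein of secreted lipoproteins, was at 3689.9 CPM in S2 against 1439 CPM in S1, 2.56-fold higher (2.53 to 2.6). Apoe, which macrophages also make, was the lower one, at 781 CPM in S2 against 2662 CPM in S1, 3.41-fold lower (3.35 to 3.47). Complement had 4 higher and 4 lower of 24 tested. The higher ones included Masp1, the lectin pathway protease, at 106 CPM in S2 against 13.9 CPM in S1, 7.6-fold higher (6.83 to 8.46). Vtn, which blocks the membrane attack complex, was at 5.65 CPM in S2 against 0.103 CPM in S1, 54.6-fold higher (18.3 to 269). C1qa, C1qb and C1qc, the C1q chains that macrophages express, were lower, C1qa being at 4.64 CPM in S2 against 93.8 CPM in S1, 20.2-fold lower (16.6 to 24.9). Serpins had 8 higher and 11 lower of 28 tested. Serpina3i, a protease inhibitor of the acute phase family, was at 0.319 CPM in S2 against 36.2 CPM in S1, 114-fold lower (55 to 283). Serpina1d, one of the alpha-1-antitrypsin copies, was at 25.9 CPM in S2 against 97.8 CPM in S1, 3.78-fold lower (3.45 to 4.15). Serpinf2, the plasmin inhibitor, went the other way, at 36.7 CPM in S2 against 7.51 CPM in S1, 4.89-fold higher (4.2 to 5.7). Of 17 acute phase genes, 6 were higher and 3 lower, the lower ones being Lcn2, Steap4 and Saa3, a serum amyloid, at 0.637 CPM in S2 against 33.4 CPM in S1, 52.5-fold lower (31.1 to 96.3).

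Liver transcription factors had 10 higher and 0 lower of 31 tested, all 31 of which passed 1 CPM in both stages. The bile acid receptor gene Nr1h4 was at 17.3 CPM in S2 against 3.1 CPM in S1, 5.58-fold higher (4.43 to 7.11). The xenobiotic receptor gene Nr1i2 was at 17.3 CPM in S2 against 5.2 CPM in S1, 3.34-fold higher (2.76 to 4.06). Nr1h3, the oxysterol receptor, was at 9.11 CPM in S2 against 2.82 CPM in S1, 3.22-fold higher (2.48 to 4.22). Xbp1, a factor of secretory cells, was at 134 CPM in S2 against 58.2 CPM in S1, 2.31-fold higher (2.17 to 2.45). Hnf4a stood at 108, 38.9, 234 and 163 CPM from S0 to S3 over the protocol. Cebpb, Rora and Onecut2 were uncalled, Onecut2 being at 112 CPM in S2 and 119.6 CPM in S1.

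Detoxification and bile genes included several of the farthest gains. Of 32 cytochrome P450 genes tested, 10 were higher and 4 lower, but 11 reached 1 CPM in S2 only, and of the 20 at 1 CPM in both stages 1 was higher and 3 lower. Cyp2a5, the coumarin hydroxylase, was at 15.8 CPM in S2 against 0.517 CPM in S1, 30.7-fold higher (18.3 to 55.4). Cyp1a2 was at 7.47 CPM in S2 against 0.723 CPM in S1, 10.3-fold higher (6.54 to 17.1). Of 30 conjugation genes, 12 were higher and 4 lower. Ugt2b35, a glucuronosyltransferase, was at 172 CPM in S2 against 7.3 CPM in S1, 23.6-fold higher (20.6 to 27.3). The glutathione transferase genes Gsta1 and Gsta3 were at 419 CPM in S2 against 56.4 CPM in S1, 7.42-fold higher (7.04 to 7.82) for Gsta1 and 301 CPM in S2 against 54 CPM in S1, 5.58-fold higher (5.28 to 5.9) for Gsta3. Bile acid genes had 6 higher and 0 lower of 17. Acox2, the peroxisomal oxidase of bile acid synthesis, was at 76.5 CPM in S2 against 3.03 CPM in S1, 25.3-fold higher (20.4 to 31.7). Abcc2, the pump for conjugates into bile, was at 650.2 CPM in S2 against 40.2 CPM in S1, 16.2-fold higher (15.2 to 17.2). Abcb4, the phospholipid exporter of bile, was at 27.8 CPM in S2 against 12 CPM in S1, 2.32-fold higher (2.03 to 2.66). Reads of close paralogs in the Ugt2b, Gsta, Serpina, Serpinb9, histone and Pcdhb families are uncertain where the counting could split them.

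NRF2 targets, genes of glutathione synthesis and antioxidant defence, had 16 higher and 0 lower of 34, all at 1 CPM in both stages. Their median log2 ratio was 1.03. Slc7a11, the cystine importer, was at 552 CPM in S2 against 94.6 CPM in S1, 5.83-fold higher (5.6 to 6.08). Gstm3 was at 14.8 CPM in S2 against 2.14 CPM in S1, 6.95-fold higher (5.28 to 9.28). Prdx1, a peroxiredoxin on the same list, was uncalled, at 1720.2 CPM in S2 and 2956 CPM in S1, as was Hmox1, the haem oxygenase, at 273 CPM in S2 and 149 CPM in S1. The antioxidant response element core, TGACNNNGC on either strand, was in the promoter windows of 3 of 12 higher members with a window (Abcc2, Gclm and Gsta3) and of 9 of 17 uncalled ones, against 12.4% of all windows. The Abcc2 window is printed because this gene had the farthest gain of the list. It is chr19:43782058-43782357 on the plus strand, with the core in capitals:
Abcc2: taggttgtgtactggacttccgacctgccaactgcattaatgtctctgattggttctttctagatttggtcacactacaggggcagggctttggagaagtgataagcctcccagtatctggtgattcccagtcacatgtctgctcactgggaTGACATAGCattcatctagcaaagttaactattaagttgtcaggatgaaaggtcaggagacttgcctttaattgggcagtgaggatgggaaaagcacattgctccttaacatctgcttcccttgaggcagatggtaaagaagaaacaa

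Metabolic lists of the hepatocyte stand beside 6.93% higher and 10.4% lower over all genes. Amino acid and urea cycle genes had 4 higher and 8 lower of 35 tested (11.4% and 22.9%). Oat, the ornithine aminotransferase, was at 169 CPM in S2 against 64.9 CPM in S1, 2.6-fold higher (2.46 to 2.75). Csad, of taurine synthesis, was at 36.8 CPM in S2 against 9.71 CPM in S1, 3.79-fold higher (3.3 to 4.35). Aass, which starts lysine breakdown, was at 2.64 CPM in S2 against 21.2 CPM in S1, 8.02-fold lower (6.12 to 10.7). Cbs, of homocysteine removal, was at 1.27 CPM in S2 against 5.96 CPM in S1, 4.67-fold lower (3.12 to 7.24). Gls2, the liver glutaminase, was at 1.82 CPM in S2 against 7.3 CPM in S1, 4.01-fold lower (2.85 to 5.77). Gluconeogenesis and glycogen genes had 3 higher and 1 lower of 21. Gbe1, the glycogen branching enzyme, was at 161 CPM in S2 against 36 CPM in S1, 4.47-fold higher (4.17 to 4.8). Cholesterol synthesis genes had 4 higher and 0 lower of 25 (median log2 ratio 0.78), and Hmgcs1, an early enzyme of that path, was uncalled, at 199 CPM in S2 and 96.6 CPM in S1. Fatty acid oxidation genes had 2 higher and 4 lower of 35 (5.7% and 11.4%), close to the shares over all genes. Of 13 genes encoded by mitochondrial DNA, 2 were higher and 0 lower, and mt-Co1, a subunit of cytochrome oxidase, was uncalled with the largest gain in level, at 16861 CPM in S2 and 10121 CPM in S1. None of 78 cytosolic ribosomal protein genes was called.

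Matrix genes moved in both directions. Collagens had 5 higher and 7 lower of 34 tested, and 5 higher and 3 lower of the 29 at 1 CPM in both stages. Col5a2 was at 2819.7 CPM in S2 against 1056 CPM in S1, 2.67-fold higher (2.63 to 2.71). Col3a1 was at 163 CPM in S2 against 56.6 CPM in S1, 2.89-fold higher (2.73 to 3.07). Col4a5, of the basement membrane, was at 829 CPM in S2 against 365 CPM in S1, 2.27-fold higher (2.22 to 2.33). Col5a3 was at 5.05 CPM in S2 against 33.8 CPM in S1, 6.69-fold lower (5.49 to 8.22). Col6a3 was at 0.41 CPM in S2 against 7.3 CPM in S1, 17.8-fold lower (9.21 to 39.5). Col4a1, with one of the largest gains in level, was at 3925 CPM in S2 and 1992 CPM in S1, just under the 2-fold limit. Lox, which cross-links collagen, was at 2021 CPM in S2 against 412 CPM in S1, 4.9-fold higher (4.81 to 5.0). Of 5 small leucine-rich proteoglycans tested, 3 were higher. Dcn, decorin, was at 146 CPM in S2 against 30.2 CPM in S1, 4.82-fold higher (4.47 to 5.2). Ogn, osteoglycin, was at 52.3 CPM in S2 against 4.89 CPM in S1, 10.7-fold higher (8.97 to 12.8). Stellate cell and fibroblast markers had 4 higher and 10 lower of 32. Gas1, a membrane protein of growth arrest, was at 63.6 CPM in S2 against 4.55 CPM in S1, 14-fold higher (11.7 to 16.8). Pdgfrb, the platelet-derived growth factor receptor, was at 25 CPM in S2 against 6.03 CPM in S1, 4.15-fold higher (3.49 to 4.95). Thy1, a fibroblast surface protein, was at 4.1 CPM in S2 against 49.6 CPM in S1, 12.1-fold lower (9.77 to 15.1). Mesothelial markers, 5 higher and 3 lower of 18, included Upk1b, a uroplakin, at 696 CPM in S2 against 178 CPM in S1, 3.9-fold higher (3.78 to 4.03). Wt1 was at 75.5 CPM in S2 against 22.8 CPM in S1, 3.3-fold higher (3.02 to 3.62), while Msln was uncalled, at 1247 CPM in S2 and 1179 CPM in S1.

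Smooth muscle genes had 10 lower and 1 higher of 20 (median log2 ratio -1.07). Cnn1, calponin, was at 9.29 CPM in S2 against 41.1 CPM in S1, 4.42-fold lower (3.81 to 5.15). Myh11, smooth muscle myosin, was at 6.74 CPM in S2 against 23.4 CPM in S1, 3.46-fold lower (2.9 to 4.17), and Mylk, the kinase of the myosin light chain, was the higher one at 87.6 CPM in S2 against 16.3 CPM in S1, 5.38-fold higher (4.86 to 5.96). Integrins and laminins had 9 lower and 1 higher of 34, with Lama3 at 2.6 CPM in S2 against 24.1 CPM in S1, 9.28-fold lower (7.07 to 12.4). Itgb5 was at 573 CPM in S2 against 187 CPM in S1, 3.07-fold higher (2.97 to 3.17). Biliary and progenitor markers had 8 lower and 2 higher of 26, and 5 lower and 2 higher of the 21 at 1 CPM in both stages. Spp1, osteopontin, was at 403 CPM in S2 against 1276 CPM in S1, 3.17-fold lower (3.1 to 3.24). Prom1, a progenitor surface protein, was at 4.42 CPM in S2 against 18 CPM in S1, 4.09-fold lower (3.28 to 5.13). Keratins, claudins and desmosomal genes had 8 lower and 3 higher of 42, but 3 in each direction of the 33 at 1 CPM in both stages, and their median, 0.05 on the log2 scale, changed sign with every other scaling. The desmosome linker gene Dsp was at 783 CPM in S2 against 238 CPM in S1, 3.29-fold higher (3.2 to 3.38). Krt8 and Krt18, the keratin pair of hepatocytes, were uncalled. Krt8 was at 2457 CPM in S2 and 3308 CPM in S1. Krt18 was at 1490.2 CPM in S2 and 2392 CPM in S1.

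Macrophage transcripts were lower in S2. Of 38 macrophage and Kupffer cell genes tested, 22 were lower and 2 higher (57.9% lower, against 10.4% of all genes), and of the 34 at 1 CPM in both stages 18 were lower. Marco, a scavenger receptor, was at 5.6 CPM in S2 against 169 CPM in S1, 30.2-fold lower (25.3 to 36.5). Lyz2, lysozyme, was at 545 CPM in S2 against 2429 CPM in S1, 4.46-fold lower (4.37 to 4.55). Adgre1, which encodes F4/80, was at 8.47 CPM in S2 against 139 CPM in S1, 16.4-fold lower (14.2 to 19). Clec4f, a Kupffer cell lectin, was at 0.0455 CPM in S2 against 2.03 CPM in S1, 44.6-fold lower (7.7 to 1792). Lyz2 had a lower level in S1 than in S0, and Marco did not. Lyz2 was at 8936, 2429, 545 and 519.8 CPM from S0 to S3, and Marco at 73.5, 169, 5.6 and 4.35 CPM from S0 to S3. Csf2rb, a receptor subunit for granulocyte-macrophage colony-stimulating factor, was at 10.9 CPM in S2 against 267 CPM in S1, 24.4-fold lower (21.5 to 27.9). The platelet chemokine gene Pf4 was at 1.5 CPM in S2 against 64.1 CPM in S1, 42.7-fold lower (30.3 to 62.2). Irg1, which makes itaconate in activated macrophages, was at 0.319 CPM in S2 against 26.3 CPM in S1, 82.4-fold lower (39.8 to 206). The 2 higher members were Cd14, the endotoxin co-receptor, at 27.1 CPM in S2 against 4.79 CPM in S1, 5.66-fold higher (4.7 to 6.86), and Nr1h3, also a hepatocyte gene.

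Other immune lists went the same way. MHC class II genes had 8 lower and 0 higher of 12, and of the 6 at 1 CPM in both stages 4 were lower. Cd74, the invariant chain, was at 0.182 CPM in S2 against 6.44 CPM in S1, 35.4-fold lower (13.6 to 131). Chemokine genes had 11 lower and 0 higher of 25, and of the 20 at 1 CPM in both stages 6 were lower. Ccl3, a macrophage chemokine, was at 2.82 CPM in S2 against 20.3 CPM in S1, 7.17-fold lower (5.51 to 9.48). Interferon response genes had 12 lower and 1 higher of 41. Rsad2, viperin, was at 3.78 CPM in S2 against 73.4 CPM in S1, 19.4-fold lower (15.6 to 24.5). H2-D1, a class I heavy chain, was at 19.2 CPM in S2 against 112 CPM in S1, 5.84-fold lower (5.28 to 6.48), and Irgm1, an interferon-induced GTPase, was the higher one at 71.9 CPM in S2 against 12.1 CPM in S1, 5.95-fold higher (5.29 to 6.7). Of 16 endothelial genes tested, 5 were lower and 2 higher, with Stab1, a scavenger receptor shared with macrophages, at 4.78 CPM in S2 against 31.8 CPM in S1, 6.64-fold lower (5.42 to 8.21). Lower macrophage marker sums stood beside all of these lists, and their part in these results was not tested.

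Neuronal genes, which hepatocytes do not normally use, were lower in S2 on most lists. Synapse genes had 22 lower and 1 higher of 43, but 16 of these reached 1 CPM in S1 only. Among the 26 at 1 CPM in both stages 9 were lower and 1 higher. Snap25, of vesicle fusion, was at 0.137 CPM in S2 against 15.7 CPM in S1, 115-fold lower (39.1 to 559.5), and its level over the protocol was 0.15, 15.7, 0.137 and 0.768 CPM from S0 to S3. Syt1, the calcium sensor of release, was at 0.273 CPM in S2 against 10.2 CPM in S1, 37.3-fold lower (16.9 to 102), and Cplx2, complexin, was the higher one at 86.4 CPM in S2 against 7.4 CPM in S1, 11.7-fold higher (10.1 to 13.5). Neuronal cytoskeleton genes had 14 lower and 0 higher of 29, with 26 at 1 CPM in both stages. Map2 was at 3.19 CPM in S2 against 82.4 CPM in S1, 25.9-fold lower (20.4 to 33.3). Mapt, which encodes tau, was at 1.46 CPM in S2 against 18.6 CPM in S1, 12.8-fold lower (8.93 to 18.8). Nefl, a neurofilament, was at 1.5 CPM in S2 against 27.7 CPM in S1, 18.5-fold lower (13 to 27). Nptx1, neuronal pentraxin, was at 0.273 CPM in S2 against 13.7 CPM in S1, 50.2-fold lower (22.8 to 138). Of 18 neuronal transcription factors tested, 8 were lower and 0 higher, and of the 10 at 1 CPM in both stages 5 were lower. Sox11, a factor of immature neurons, was at 4.19 CPM in S2 against 46.2 CPM in S1, 11-fold lower (8.92 to 13.8).

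Ion channels and receptors showed how much the 1 CPM limit matters. Potassium channels had 25 lower and 2 higher of 45, and 25 of the 45 reached 1 CPM in S1 only. Of the 19 at 1 CPM in both stages, 5 were lower and 2 higher. Kcnh3, a voltage-gated channel of the forebrain, was at 0.273 CPM in S2 against 14.2 CPM in S1, 51.8-fold lower (23.6 to 142). Kcnj10, of glia, was at 0.0911 CPM in S2 against 7.89 CPM in S1, 86.6-fold lower (23.7 to 719). Kcnab1, a channel beta subunit, was at 73.7 CPM in S2 against 23.2 CPM in S1, 3.18-fold higher (2.9 to 3.48). Neurotransmitter receptors had 14 lower and 4 higher of 32. Among the 15 at 1 CPM in both stages 3 were lower and 4 higher, and the median log2 ratio was 0.34 there against -1.26 over the 32. Grin1, the common subunit of NMDA receptors, was at 0.0911 CPM in S2 against 4.34 CPM in S1, 47.6-fold lower (12.9 to 398). Gria3, an AMPA receptor subunit, was at 43.2 CPM in S2 against 9.3 CPM in S1, 4.64-fold higher (4.05 to 5.33).

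Among clustered protocadherins the beta genes ran against most neural lists. All 9 beta protocadherin genes tested were higher, between 3.50-fold and 7.74-fold, out of 22 in the table. Of these 9, 4 reached 1 CPM in S2 only, and so could not have been called lower. Of 20 gamma genes tested 2 were higher (10.0%, against 6.93% of all genes). Of 2 alpha cluster genes tested, Pcdhac2 was lower and Pcdha11 was uncalled, both named after their values were seen. Pcdhb17 was at 15.2 CPM in S2 against 3.69 CPM in S1, 4.13-fold higher (3.31 to 5.18). Pcdhb16 was at 8.92 CPM in S2 against 1.76 CPM in S1, 5.08-fold higher (3.72 to 7.06). Celsr3, a cadherin of the flamingo type, was at 1.5 CPM in S2 against 19.2 CPM in S1, 12.8-fold lower (8.98 to 18.7). Of 60 contactin and axon guidance genes, 5 were higher and 13 lower (8.3% and 21.7%, against 6.93% and 10.4% of all genes). Among the 52 at 1 CPM in both stages 5 were higher and 8 lower, and without TMM 2 were higher and 15 lower. Sema3a, a repellent, was at 81.7 CPM in S2 against 23.4 CPM in S1, 3.5-fold higher (3.2 to 3.82). Ntn4, a netrin, was at 66.1 CPM in S2 against 8.16 CPM in S1, 8.09-fold higher (7.05 to 9.33). Plxna3, a semaphorin receptor, was at 13.4 CPM in S2 against 70.4 CPM in S1, 5.24-fold lower (4.64 to 5.94).

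Ins1, Ins2, Gcg and Sst, the islet hormone genes, had 0 reads in both libraries, which allows up to 0.137 CPM in S2 and 0.103 CPM in S1. Of 20 granule and islet genes tested, 8 were lower and 1 higher, and of the 11 at 1 CPM in both stages 3 were lower and 1 higher. Chga, chromogranin A, was at 0.228 CPM in S2 against 8.82 CPM in S1, 38.7-fold lower (16.4 to 120.3). Vgf was at 25.3 CPM in S2 against 113 CPM in S1, 4.45-fold lower (4.07 to 4.88). Abcc8, the sulfonylurea receptor, was at 0.0455 CPM in S2 against 1.52 CPM in S1, 33.3-fold lower (5.67 to 1344). The granule enzymes Cpe and Pam were uncalled. Cpe was at 463 CPM in S2 and 289 CPM in S1. Pam was at 346 CPM in S2 and 271 CPM in S1.

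Targets of the inhibitors given before S1 were followed into S2. DNA methylation genes had 1 higher and 1 lower of 21 (4.8% each). Uhrf1, which recruits the maintenance methyltransferase, was at 4.1 CPM in S2 against 18.7 CPM in S1, 4.55-fold lower (3.64 to 5.76). Histone deacetylase and REST complex genes had 2 higher and 1 lower of 27 (7.4% and 3.7%). Over all genes 6.93% were higher and 10.4% lower. Rest, the repressor of neuronal genes, was uncalled, at 138 CPM in S2 and 74.7 CPM in S1. Histone genes had 20 lower and 1 higher of 67. Hist1h1a, a linker histone, was at 3.73 CPM in S2 against 25.5 CPM in S1, 6.82-fold lower (5.42 to 8.67). Hist1h4k was at 1.82 CPM in S2 against 34 CPM in S1, 18.6-fold lower (13.6 to 26.3). Germline genes, commonly silenced by methylation, had 7 lower and 0 higher of 12, and of the 5 at 1 CPM in both stages 2 were lower. Tex15 was at 7.97 CPM in S2 against 27.6 CPM in S1, 3.46-fold lower (2.94 to 4.1). Stag3, a meiotic cohesin, was at 0.41 CPM in S2 against 4.89 CPM in S1, 11.9-fold lower (6.11 to 26.6). Of 30 Zfp9xx zinc finger genes tested, 1 was lower.

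Genes of mitosis and DNA replication were lower or uncalled. Mitosis genes had 19 lower and 0 higher of 40 (median log2 ratio -1.40), and replication genes 7 lower and 0 higher of 44 (-0.66). Bub1b, of the spindle checkpoint, was at 2.14 CPM in S2 against 9.61 CPM in S1, 4.49-fold lower (3.29 to 6.25). Cenpf, of the kinetochore, was at 3.42 CPM in S2 against 13.8 CPM in S1, 4.04-fold lower (3.15 to 5.25). Prc1, of cytokinesis, was at 6.78 CPM in S2 against 25 CPM in S1, 3.68-fold lower (3.08 to 4.42). Cdk1, the mitotic kinase, was uncalled, at 14 CPM in S2 and 17.6 CPM in S1, and so was Pcna, the replication clamp, at 54.3 CPM in S2 and 63 CPM in S1. Of 35 cyclin D, CDK inhibitor and p53 target genes tested, 6 were higher and 4 lower (17.1% and 11.4%). The D cyclin genes Ccnd1 and Ccnd2 were higher, though the call of Ccnd1 was lost under 4 of 5 other scalings. Ccnd1 was at 331 CPM in S2 against 159 CPM in S1, 2.08-fold higher (2.01 to 2.16). Ccnd2 was at 1152 CPM in S2 against 448 CPM in S1, 2.57-fold higher (2.52 to 2.63). Cdk6 was at 474 CPM in S2 against 171 CPM in S1, 2.77-fold higher (2.68 to 2.87). The inhibitor gene Cdkn2b was at 357 CPM in S2 against 167 CPM in S1, 2.14-fold higher (2.06 to 2.22). Cdkn1c was at 4.14 CPM in S2 against 27.5 CPM in S1, 6.64-fold lower (5.34 to 8.34).

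Of 47 EGF and FGF pathway genes tested, 5 were higher and 4 lower (10.6% and 8.5%), near the 6.93% and 10.4% of all genes. Fgf2, which encodes the factor also added to the medium, was at 367 CPM in S2 against 49.9 CPM in S1, 7.36-fold higher (6.96 to 7.79). Fgf1 was at 20.1 CPM in S2 against 2.89 CPM in S1, 6.94-fold higher (5.49 to 8.87). Fgf7 was at 10 CPM in S2 against 1.48 CPM in S1, 6.76-fold higher (4.86 to 9.61). Areg, a ligand of the EGF receptor, was at 3.46 CPM in S2 against 125 CPM in S1, 36-fold lower (28.7 to 45.8), and Egfr itself was uncalled, at 406 CPM in S2 and 496 CPM in S1. In the Wnt pathway 6 genes were higher and 11 lower of 46, and 6 in each direction of the 40 at 1 CPM in both stages. Wnt5a was at 53.7 CPM in S2 against 15 CPM in S1, 3.59-fold higher (3.21 to 4.01). The receptor gene Fzd7 was at 87.7 CPM in S2 against 30.3 CPM in S1, 2.9-fold higher (2.67 to 3.14), while Wnt7b was at 1.14 CPM in S2 against 14.4 CPM in S1, 12.6-fold lower (8.45 to 19.8). Notch genes had 8 lower and 0 higher of 25, and of the 20 at 1 CPM in both stages 3 were lower. The target gene Hey1 was at 0.273 CPM in S2 against 8.99 CPM in S1, 32.9-fold lower (14.9 to 90.5). The ligand gene Jag1 was uncalled, with 75.2 CPM in S2 and 71 CPM in S1. Of 59 TGF-beta family genes, 6 were higher and 8 lower (10.2% and 13.6%), and of the 53 at 1 CPM in both stages 6 were higher and 4 lower. Tgfb3 was at 227 CPM in S2 against 71.8 CPM in S1, 3.17-fold higher (3.01 to 3.33). Tgfb2 was at 38.5 CPM in S2 against 11.9 CPM in S1, 3.23-fold higher (2.85 to 3.67). Yap1, the Hippo pathway effector, was at 209 CPM in S2 against 56.5 CPM in S1, 3.7-fold higher (3.5 to 3.92). Of 26 immediate early genes, 6 were lower and 0 higher, with Nr4a1 at 1.0 CPM in S2 against 5.23 CPM in S1, 5.23-fold lower (3.33 to 8.59).

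The IGF axis and imprinted genes had 7 higher and 8 lower of 34 (20.6% and 23.5%), and endoplasmic reticulum and stress genes 4 higher and 1 lower of 36. Igf2, the fetal growth factor, was at 2.28 CPM in S2 against 7.96 CPM in S1, 3.49-fold lower (2.56 to 4.84). H19, its imprinted neighbour, was at 0.41 CPM in S2 against 2.14 CPM in S1, 5.21-fold lower (2.57 to 11.9). Igfbp4 was at 50.3 CPM in S2 against 16.2 CPM in S1, 3.11-fold higher (2.79 to 3.47). Impact, a translation regulator, was at 337 CPM in S2 against 95.1 CPM in S1, 3.55-fold higher (3.39 to 3.71). Nupr1, a stress-induced chromatin protein, was at 93.8 CPM in S2 against 9.75 CPM in S1, 9.62-fold higher (8.49 to 10.9). Vegfa was at 129 CPM in S2 against 41.5 CPM in S1, 3.1-fold higher (2.9 to 3.32). The lactate exporter gene Slc16a3 was at 7.15 CPM in S2 against 76.4 CPM in S1, 10.7-fold lower (9.08 to 12.6). Angptl7, a secreted angiopoietin-like protein, was at 96.3 CPM in S2 against 2.14 CPM in S1, 45.1-fold higher (35 to 59) and was higher still in S3, with 3.18, 2.14, 96.3 and 303 CPM from S0 to S3. Star, which moves cholesterol into mitochondria, was at 79.8 CPM in S2 against 6.03 CPM in S1, 13.2-fold higher (11.3 to 15.6). Akap12, a kinase scaffold, was at 464 CPM in S2 against 1983 CPM in S1, 4.28-fold lower (4.19 to 4.37). Acan, aggrecan, was at 0.683 CPM in S2 against 25.7 CPM in S1, 37.6-fold lower (22.6 to 67.5).

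Long non-coding genes were called about as often in either direction. Of 998 tested, 71 were higher (7.11%) and 68 lower (6.81%), whereas of 13626 protein-coding genes 6.92% were higher and 10.6% lower. The antisense gene Gm43449 was at 11.9 CPM in S2 against 0.482 CPM in S1, 24.7-fold higher (14.5 to 45.9). The intergenic 9030622O22Rik was at 13 CPM in S2 against 0.551 CPM in S1, 23.6-fold higher (14.3 to 41.8). The steepest loss of any gene of at least 10 CPM was that of MSTRG.5093, an unannotated transcript on chromosome 12, at 1.27 CPM in S2 against 194 CPM in S1, 153-fold lower (105 to 229.7). It stood at 6.96, 194, 1.27 and 6.92 CPM from S0 to S3. Miat was at 0.182 CPM in S2 against 6.3 CPM in S1, 34.6-fold lower (13.3 to 128). Mir22hg, the host of a microRNA, was at 41 CPM in S2 against 10 CPM in S1, 4.09-fold higher (3.58 to 4.69). Malat1, named in the title of the series, was uncalled at 17866 CPM in S2 and 18013 CPM in S1, as was Neat1 at 1290.2 CPM in S2 and 943 CPM in S1.

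**Figure D5:**
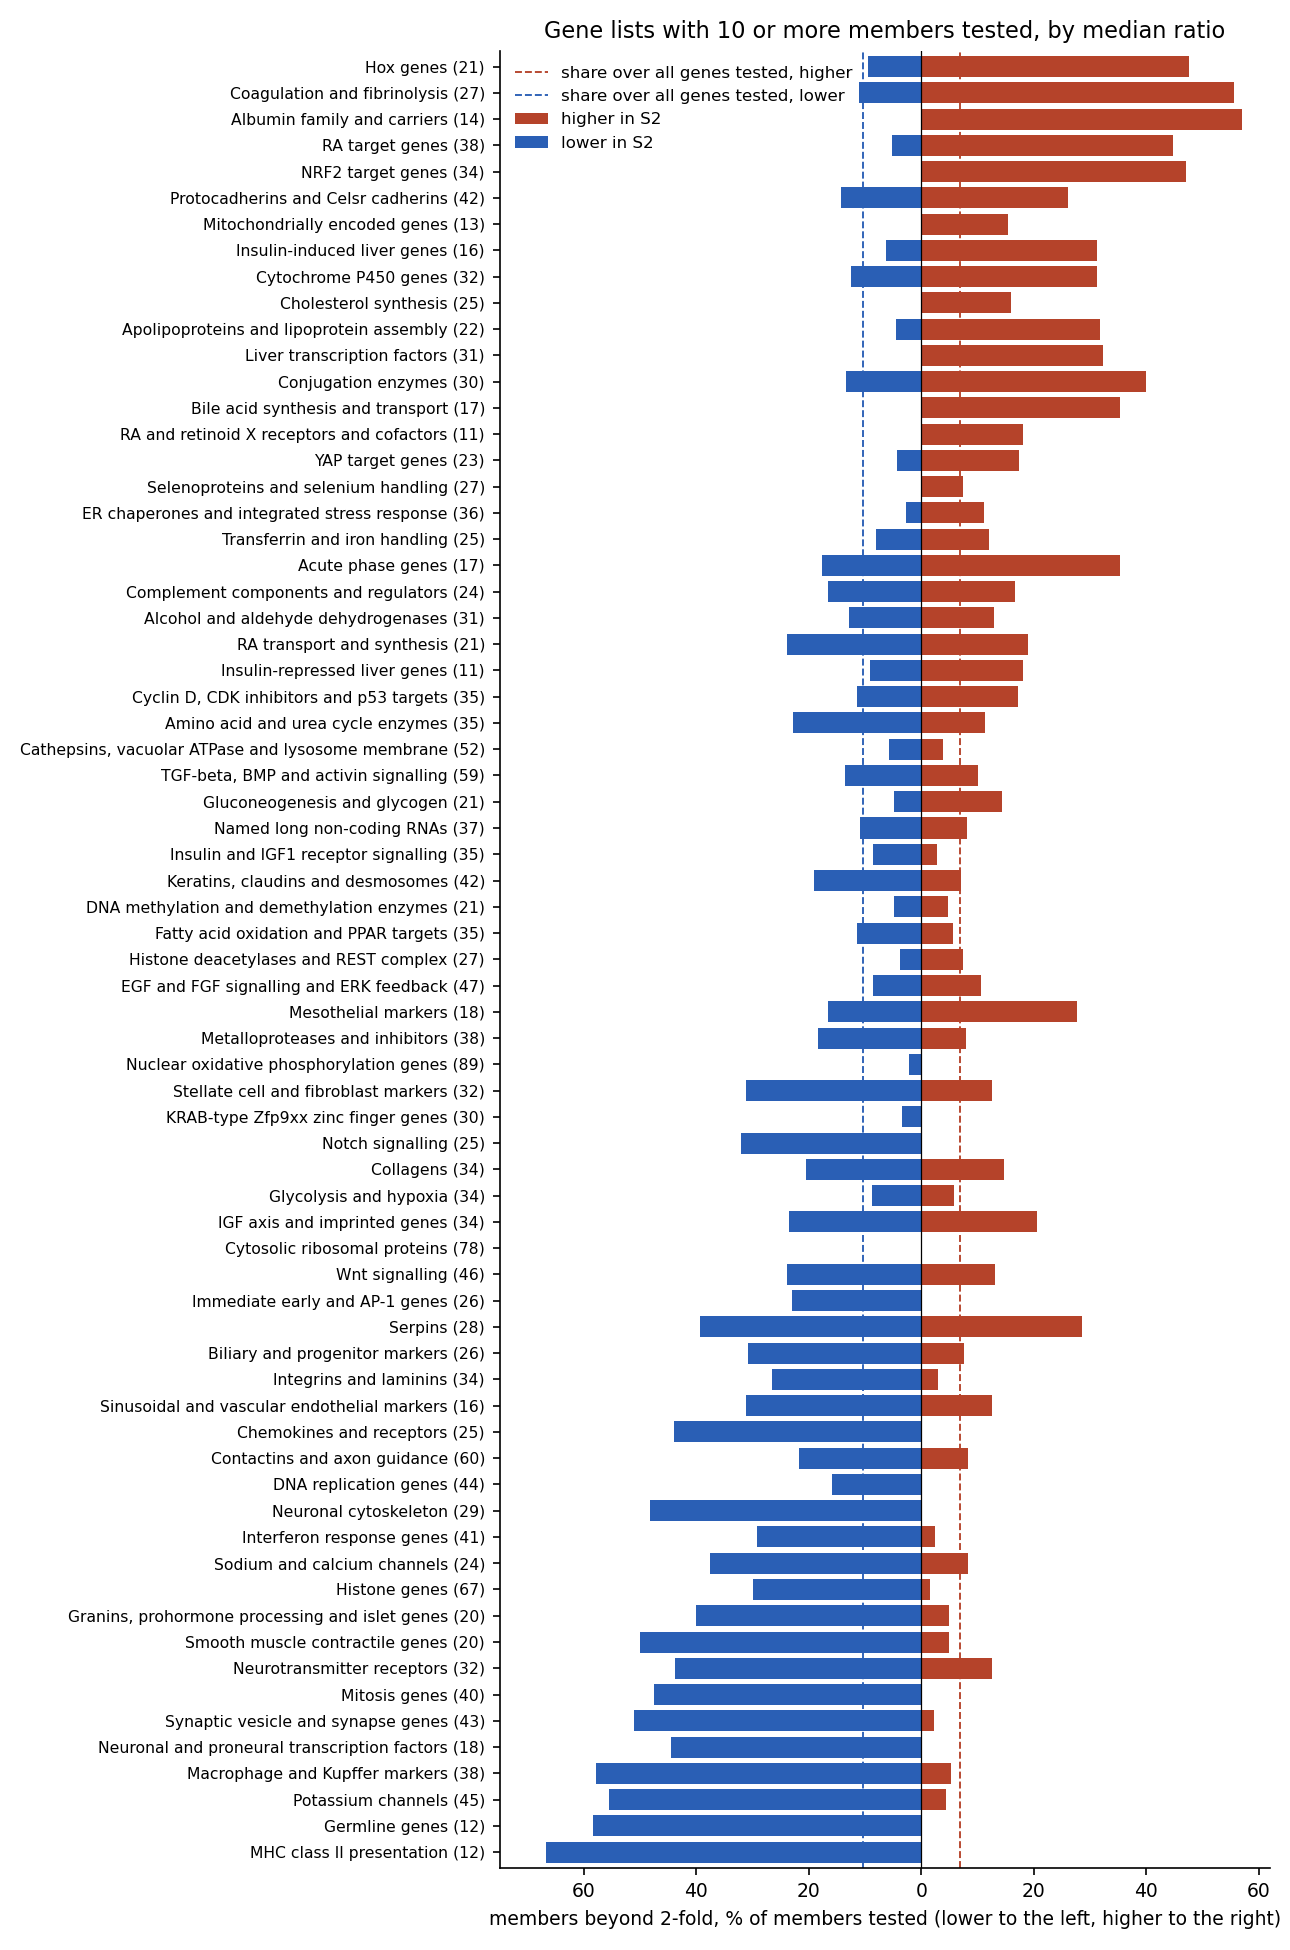
Share of tested members that were higher (red, to the right) or lower (blue, to the left) in S2 than in S1 for each gene list with at least 10 members tested, with the number tested in parentheses and lists ordered by median log2 ratio. Dashed lines mark the shares over all genes, 6.93% higher and 10.4% lower, and Hox, coagulation, albumin family and RA target lists are at the top, with MHC class II and germline genes at the bottom.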

How the data were processed

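Total RNA of 4 culture stages was sequenced as 1 library each with a stranded kit, per the labels' protocols. The authors deposited whole-number read counts per gene and RPKM values per gene (reads per kilobase and library size), per the file headers. Genome build mm9 and bcl2fastq are named in the submitters' processing notes. Not given in the sources used here are the aligner, counting program, annotation and strand setting. Counts were scaled to CPM with TMM factors over all 4 libraries (edgeR 4.0.16, R 4.3.3), which were 1.089 for S1 and 0.957 for S2. Ratios, exact 95% Clopper-Pearson intervals and calls were computed in Python 3.11.15 with scipy 1.17.1, tested on simulated data. With 1 library per stage edgeR has no residual spread, so no p-value is given. The 72 gene lists and the members were chosen with earlier results of these data known. Members at 0 reads entered list medians at their bound.

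Genes named are the 12 higher and 12 lower genes of at least 10 CPM with the farthest interval bound, the 12 largest gains and losses in CPM, called retinoid and ITS genes with up to 6 further ones per list, up to 6 called genes per direction and 3 uncalled ones of each other list, the 6 farthest long non-coding genes per direction, and the cell type markers. The genes with the repeat in their promoter window were named by that match. Some genes that these rules name are not reported here. Any other gene is said to be chosen after its values were seen. Promoter windows are from RefSeq (GRCm38.p6), and no coordinate of the mm9 files is printed. Alternatives were other scalings, filters and fold limits, and the deposited RPKM values with a pseudocount of 0.1.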

Additional observations from a re-analysis of the deposited data

How the results depend on the processing

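No call changed direction under any of the 10 alternatives run. The filters and fold limits left each ratio as it was, so they could not turn a call. Among other scalings of the counts the largest shift of the median was -0.20 on the log2 scale, without TMM. That is too little to turn a call beyond 2-fold. Calls were lost, however: 302 without TMM, 217 in the RPKM values, 93 with TMM on protein-coding genes, 79 with RLE size factors and 1825 with intervals beyond 4-fold. The count of higher genes, 1014 with TMM scaling, was 1613 when the ratio alone had to pass 2-fold and 179 with intervals beyond 4-fold. The count of lower genes, 1518, was 528 with intervals beyond 4-fold, 884 with at least 5 CPM in either stage and 825 with at least 1 CPM in both, where fewer genes were tested. The share of called genes that were higher, 40%, was 27.3% without TMM (709 higher and 1889 lower), 30.8% from the RPKM values (935 higher and 2103 lower), 49.5% at 5 CPM and 51.0% at 1 CPM in both stages. It was 25.3% with intervals beyond 4-fold. Medians of 18 lists lay beyond 2-fold, against 10 with no filter and 11 with 1 CPM in both stages. Of 574 list medians recomputed, 510 moved by less than 0.3 on the log2 scale, and 38, of 17 lists, changed sign. The one list beyond 2-fold among these was neurotransmitter receptors, at -1.26, with 0.34 among genes at 1 CPM in both stages. The cause was not tested. Medians near 0 of the insulin signalling, gluconeogenesis, fatty acid oxidation, keratin, DNA methylation, histone deacetylase and named long non-coding lists changed sign with at least 1 scaling. Of 3462 ratios of named genes recomputed, 67, of 27 genes, changed sign, and none of these genes was called. For the scalings of the counts this follows from the 2-fold limit of a call. No paired analysis was possible because each stage is 1 library, so leaving out a library was not possible either. At this depth a gene with 0 reads lay below 0.137 CPM in S2 and 0.103 CPM in S1.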
